A study of Mus musculus with 21 samples.

Results

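The miR-99/100 and miR-125 families were followed as 9 mature miRNAs (mmu-miR-99a-5p, mmu-miR-99b-5p, mmu-miR-99b-3p, mmu-miR-100-5p, mmu-miR-125a-5p, mmu-miR-125a-3p, mmu-miR-125b-5p, mmu-miR-125b-1-3p and mmu-miR-125b-2-3p, written without the species prefix from here on) out of the 1647 in the count table. They were chosen from these data, because miR-125a-5p had the highest count in the cochlea libraries and miR-99b-5p varied strongly between SOC replicates. That rank and that spread are therefore described without a test, and the tests over time of these 2 miRNAs use the same libraries that led to the choice. The small-RNA libraries came from wild-type, untreated mice: the cochlear sensory epithelium (SE) of C57BL/6JOlaHsd mice at E16 (2 libraries), P0 (4) and P16 (4), and the superior olivary complex (SOC), an auditory brainstem region, of C57Bl6/J mice at E16 (4), P0 (4) and P16 (3). E16 is an embryonic day, and P0 and P16 are the day of birth and a later postnatal day, after hearing onset. Animals of both sexes were used, and each sample held the tissue of several animals. The cochlea libraries were made with the SMARTer smRNA-Seq kit and the SOC libraries with the TruSeq Small RNA kit, so that organ, mouse substrain and kit cannot be told apart and levels were not compared between organs. In such bulk tissue, fewer cells of a type and less RNA per cell cannot be told apart either.

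miR-99/100 and miR-125 miRNAs are encoded beside let-7 genes in conserved genomic clusters, in the order miR-99 or miR-100, let-7, miR-125. A miRNA guides repression of messages that pair with its seed, the bases near its 5′ end, so family members with the same seed share most predicted targets. miR-125 is the vertebrate relative of lin-4, the miRNA that times development in nematodes, and is abundant in nervous tissue. miR-99 and miR-100 are known for repressing parts of the mTOR and insulin-like growth factor pathways. Each hairpin yields a 5p and a 3p arm, of which usually a single arm accumulates.

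The mature sequences are given because the members are grouped by seed and because near-identical members may share reads. All 9 members matched the RefSeq miRNA annotation of GRCm38.p6, and capitals mark the seed (bases 2 to 8). The first group shares the seed ACCCGUA.
miR-99a-5p: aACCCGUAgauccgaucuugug
miR-100-5p: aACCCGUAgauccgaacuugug
miR-99b-5p: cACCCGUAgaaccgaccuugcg
The second group shares the seed CCCUGAG and includes miR-351-5p, which is not a member but was the only other matched miRNA of the table with either 5p seed.
miR-125a-5p: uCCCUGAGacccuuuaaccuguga
miR-125b-5p: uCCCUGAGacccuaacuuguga
miR-351-5p: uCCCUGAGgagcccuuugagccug
The 3p arms have seeds of their own, and those of miR-125b tell its 2 genes apart.
miR-99b-3p: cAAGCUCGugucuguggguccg
miR-125a-3p: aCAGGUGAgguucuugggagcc
miR-125b-1-3p: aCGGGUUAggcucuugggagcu
miR-125b-2-3p: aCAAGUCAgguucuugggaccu

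Counted from the 5′ end, miR-99a-5p and miR-100-5p differed by a single substitution, U16A. miR-99b-5p differed from miR-99a-5p at 4 of 22 bases (A1C, U11A, U16C and U21C), and miR-125a-5p from miR-125b-5p at 7 of the first 22. How the authors counted reads that fit several miRNAs is not given in the sources used here, so the counts of miR-99a-5p and miR-100-5p are uncertain. The other 7 members differed from every other matched sequence by at least 3 bases.

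The members came from 3 loci of GRCm38, all on the plus strand. Mir99b (chr17:17830188-17830257), Mirlet7e and Mir125a (chr17:17830812-17830879) lay within Spaca6, with 554 bases between Mir99b and Mir125a. The annotation placed Mir99b in an intron of Spaca6, while Mir125a overlapped an exon of that gene. Mir99a (chr16:77598936-77599000), Mirlet7c-1 and Mir125b-2 (chr16:77646273-77646343) lay in introns of the long noncoding gene Mir99ahg, with 47272 bases between Mir99a and Mir125b-2. Mir100 (chr9:41531425-41531504), Mirlet7a-2 and Mir125b-1 (chr9:41581926-41582002) lay in introns of the noncoding gene 3110039I08Rik, with 50421 bases between Mir100 and Mir125b-1. miR-125b-5p is made from both the chromosome 16 and the chromosome 9 gene with the same sequence, so its count cannot be split between them.

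Total counts per library ranged from 124400 to 447419 in the cochlea and from 8309669 to 18053698 in the SOC, so 1 count stood for 2.24 to 8.04 CPM (the count scaled per 1e6 counts of the library) in the cochlea and for 0.0554 to 0.120 CPM in the SOC. Counting error alone (95% Wilson interval) was at most 0.2345 percentage points either side of a share in the cochlea and 0.024 in the SOC. PCR copies cannot be told from separate molecules, so these intervals and the floor of 3 counts cover counting error only. The neuronal markers (5 miRNAs) summed to 45763 to 114940 CPM in the SOC and 572 to 5794 CPM in the cochlea, and the 3 hair cell miRNAs (miR-96, miR-182 and miR-183 5p arms) to 10805 to 71872 CPM in the cochlea. The same 3 miRNAs reached 97018 to 147950 CPM in the SOC at E16 and 592 to 2901 CPM at P16. The SOC libraries fell into sets that time point did not explain: E16 replicates 2 and 3 and P0 replicates 2 and 3 were rich in miR-99b-5p, and P0 replicate 4 and P16 replicates 2 and 3 held 0.278 to 0.322% of their counts on miR-191-5p, against 3.84 to 8.15% in the other 8. The labels name no batch that would match these sets.

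In the cochlea libraries, the 9 members held a large part of the miRNA counts. Together they made up 21.8 and 22.5% of the library total in the 2 cochlea libraries at E16, 45.1 to 51.3% at P0 and 35.5 to 59.8% at P16. Nearly all of this was miR-125a-5p and miR-125b-5p. In the SOC, the members summed to 6.14, 19.2, 20.8 and 7.65% at E16 (replicates 1 to 4), 5.99, 22.3, 19.7 and 10.4% at P0 and 4.06, 5.04 and 4.17% at P16. The high SOC values were those of the libraries rich in miR-99b-5p.

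**Figure D1:**
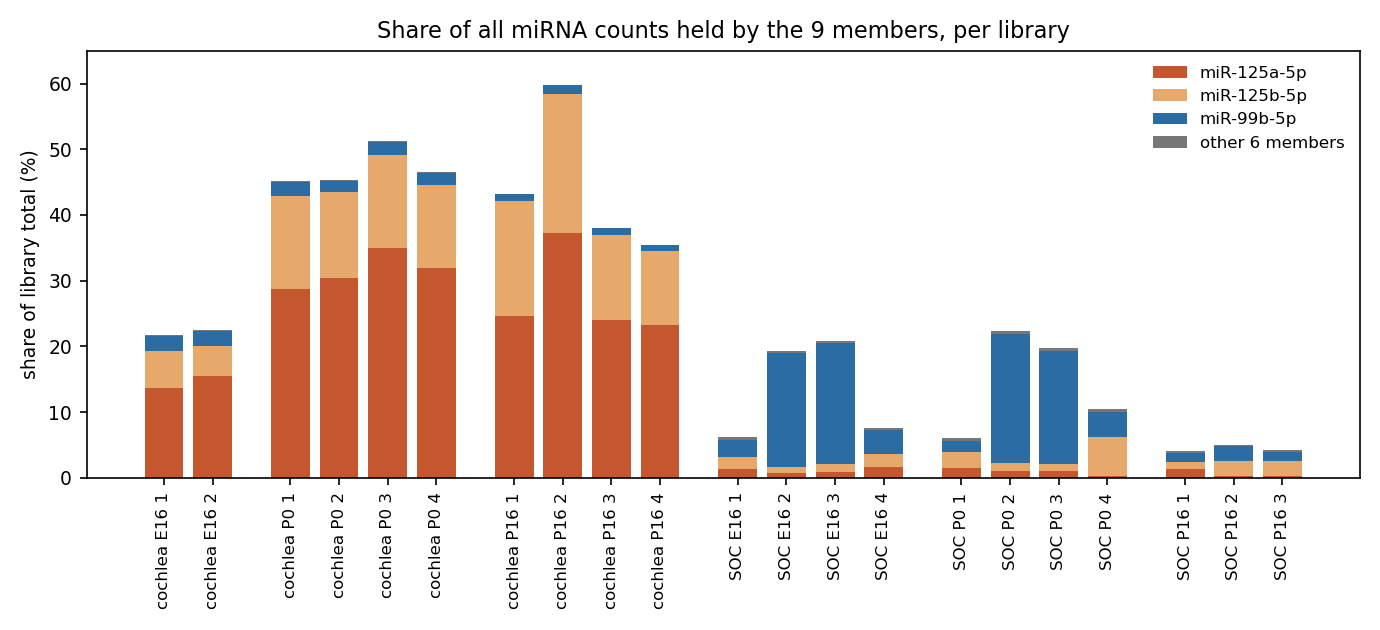
Share of all miRNA counts (%) held by the members in each of the 21 libraries, stacked as miR-125a-5p, miR-125b-5p, miR-99b-5p and the other 6 members; each bar is a library, named by organ, time point and replicate. miR-125a-5p and miR-125b-5p fill most of every cochlea bar, which rise from about 22% at E16 (21.8 and 22.5%) to 45.1% or more at P0, while miR-99b-5p fills most of the 4 highest SOC bars.

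Changes over time were tested within each organ with edgeR's quasi-likelihood test, and DE (differential expression) was called for a miRNA whose false discovery rate (FDR, Benjamini-Hochberg over all miRNAs tested in the organ) was under 0.05 and whose fold change was over 1.5, with no overlap between the libraries of the compared time points in CPM normalized by the trimmed mean of M-values (TMM). All 9 members passed the detection filter (over 1 CPM in 2 or more libraries of a time point) in both organs. In the cochlea 1 count already exceeded 1 CPM, so passing there can rest on 1 count in each of 2 libraries. The 3 comparisons of an organ share their libraries and are not independent of each other.

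In the cochlea, the miR-125 5p arms rose after E16 and the miR-99b 3p arm fell. At P0 vs E16, 2 members rose (miR-125a-5p and miR-125b-5p) and 0 fell, beside 7.81% of the 896 tested miRNAs that rose and 16.6% that fell. At P16 vs E16, the same 2 rose and miR-99b-3p fell, beside 10.9% of all tested miRNAs that rose and 18.6% that fell. At P16 vs P0, 0 rose and 1 fell, again miR-99b-3p, beside 3.91 and 6.58%. With an unadjusted p under 0.05 there were 2, 3 and 3 members in these comparisons. The median log2 fold change of the 9 members was 0.58, 0.28 and -0.09, and that of all tested miRNAs 0.00, -0.09 and 0.05.

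miR-125a-5p, the member from the chromosome 17 locus, ranked 1 of all miRNAs in each of the 10 cochlea libraries. Its share of the library total was 13.7 and 15.5% at E16, 28.7, 30.4, 35.0 and 32.0% at P0 and 24.7, 37.2, 24.1 and 23.2% at P16. All P0 and P16 libraries lay above both E16 libraries, and P0 and P16 overlapped. It rose 3.00-fold from E16 to P0 (log2 fold change 1.58 ± 0.48 SE, FDR 0.00695) and 2.84-fold from E16 to P16 (1.51 ± 0.48, FDR 0.00749), with no call between P0 and P16 (-0.07 ± 0.36, FDR 0.955). These calls rest on the 2 E16 libraries, since the FDR at P0 was 0.156 without E16 replicate 1 and 0.0769 without replicate 2, and at P16 0.151 and 0.1 (edgeR, Benjamini-Hochberg). The log2 fold changes stayed near those of all libraries, at 1.46 and 1.66 at P0 and 1.39 and 1.48 at P16. In a fit of all 21 libraries they were 1.59 (FDR 0.123) at P0 and 1.56 (FDR 0.0959) at P16.

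miR-125b-5p, the miRNA with the same seed from the chromosome 9 and 16 loci, ranked 5 at E16 and 2 in every later cochlea library. It made up 5.70 and 4.56% of counts at E16, 14.2, 13.1, 14.1 and 12.5% at P0 and 17.5, 21.2, 12.9 and 11.3% at P16. The E16 libraries were again below all others. miR-125b-5p rose 3.64-fold from E16 to P0 (log2 fold change 1.86 ± 0.48, FDR 0.000877) and 4.68-fold to P16 (2.23 ± 0.49, FDR 4.13e-05), and did not pass between P0 and P16 (0.36 ± 0.35, FDR 0.531). The P0 call was lost without E16 replicate 2 (log2 fold change 1.69, FDR 0.0653) and with all 21 libraries in the fit (FDR 0.0808), whereas the P16 call was kept under all 20 alternatives run (FDR up to 0.0244).

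Because the members took 45.1 to 51.3% of the counts at P0 and 21.8 and 22.5% at E16, the choice of scale moves the values of the other miRNAs of these libraries. Scaling by library totals in place of TMM lowered the log2 fold changes of all tested cochlea miRNAs by a median of 0.43 at P0 vs E16 and 0.44 at P16 vs E16. Changes are therefore given on the TMM scale, and the rise of both miR-125 5p arms kept its direction under TMM, RLE, library totals and totals without the 9 members. On library totals the rise was smaller, with log2 fold changes of 1.11 and 1.39 at P0 and 0.90 and 1.61 at P16 for miR-125a-5p and miR-125b-5p, all still called.

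The 3p arms of miR-125 did not share the calls of the 5p arms. miR-125a-3p, from the same hairpin as miR-125a-5p, had 406 and 369 CPM at E16, 354, 410, 517 and 497 CPM at P0 and 201, 161, 298 and 338 CPM at P16 in the cochlea. It was lower at P16 than at P0 in every library, at a log2 fold change of -0.85 ± 0.38 that did not pass (FDR 0.123). At P0 vs E16 the log2 fold change of miR-125a-3p was 0.68 ± 0.46 (FDR 0.276), with no overlap after TMM scaling. miR-125b-1-3p, which marks the chromosome 9 gene, ranged from 151 to 394 CPM over the cochlea libraries. Its log2 fold changes were 0.85 ± 0.50 at P0 vs E16 (FDR 0.199) and 0.76 ± 0.51 at P16 vs E16 (FDR 0.237). Neither comparison overlapped after TMM scaling. With a filter of at least 10 counts in every library, miR-125b-1-3p was called at P16 vs E16 (0.98, edgeR FDR 0.0402). miR-125b-2-3p, which marks the chromosome 16 gene, had 7 and 13 counts at E16, 2, 4, 2 and 2 at P0 and 4, 0, 1 and 3 at P16. At such counts no change of miR-125b-2-3p was detectable in the cochlea. The 0 at P16 replicate 2 allows up to 15.1 CPM by the floor of 3 counts.

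In the cochlea, miR-99b-3p fell while miR-99b-5p did not change in step. miR-99b-3p had 292 and 377 counts at E16 (1058 and 843 CPM), 74, 96, 62 and 69 at P0 (410, 463, 341 and 353 CPM) and 17, 8, 19 and 16 at P16 (85.25, 40.3, 132 and 129 CPM). The 3 time points did not overlap. It fell by 2.87 on the log2 scale from E16 to P16 (SE 0.46, FDR 7.99e-09) and by 2.05 from P0 to P16 (SE 0.41, FDR 1.27e-05), and at P0 vs E16 the log2 fold change of -0.82 ± 0.44 did not pass (FDR 0.149), although DESeq2 (-0.84, FDR 0.0444) and library totals (-1.28, FDR 0.0228) called it. miR-99b-5p, the arm with more counts, made up 2.27 and 2.23% of counts at E16, 2.16, 1.78, 2.04 and 1.92% at P0 and 1.04, 1.36, 1.06 and 0.882% at P16. Its share at P16 was below that of all earlier libraries, but the TMM-normalized log2 fold change of -0.46 ± 0.40 at P16 vs E16 (FDR 0.357) and of -0.74 ± 0.33 at P16 vs P0 (FDR 0.123) did not pass. Without P16 replicate 2, the library in which the members took 59.8% of counts, miR-99b-5p was called at P16 vs E16 (-0.76, FDR 0.0173) and at P16 vs P0 (-1.02, FDR 0.000354). It was also called with library totals (-1.05 and -0.86), on which scale its P0 value turned from 0.28 to -0.19.

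The remaining miR-99/100 members had few counts in the cochlea. The handling of reads that fit several miRNAs is not given, so few counts do not show that these members were absent. miR-99a-5p had 6 and 2 counts at E16, 1, 0, 1 and 0 at P0 and 2, 3, 1 and 1 at P16, and miR-100-5p 2 and 4, 5, 0, 1 and 1, and 1, 1, 2 and 3. P0 and P16 libraries of miR-99a-5p were all at or under the floor of 3 counts, so that its fitted cochlear changes depend on the prior count and are not estimates of a fold change. Of the 3 miRNAs with the seed ACCCGUA, miR-99b-5p therefore held nearly all cochlea counts.

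Markers of other cell types moved in the same libraries. In the cochlea, the cartilage and mesenchyme miRNAs (2 of the 3 listed were in the table) summed to 41232 to 72530 CPM at E16 and P0 and to 9952 to 11388 CPM at P16, and the 7 epithelial miRNAs to 19611 to 29053 CPM at E16, 4848 to 8076 at P0 and 1618 to 6930 at P16. The hair cell miRNAs summed to 69631 to 71872, 31182 to 39320 and 10805 to 40102 CPM at the 3 time points, and the endothelial miRNA (1 of 2 in the table) to 8037 to 8077, 633 to 1478 and 1325 to 6850 CPM. The 2 red blood cell miRNAs, miR-451a and miR-144-3p, were at 0 in all P0 and P16 cochlea libraries. Neuronal miRNAs summed to 4953 to 5794, 572 to 1400 and 731 to 1734 CPM, oligodendrocyte miRNAs to 17.9 to 43.5, 5.50 to 61.4 and 192 to 534 CPM, and skeletal muscle miRNAs (3 of 4 in the table, miR-133a-3p at 0) to 631 to 706, 187 to 473 and 711 to 4487 CPM. The part of these differences in the changes of the members was not tested.

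**Figure D2:**
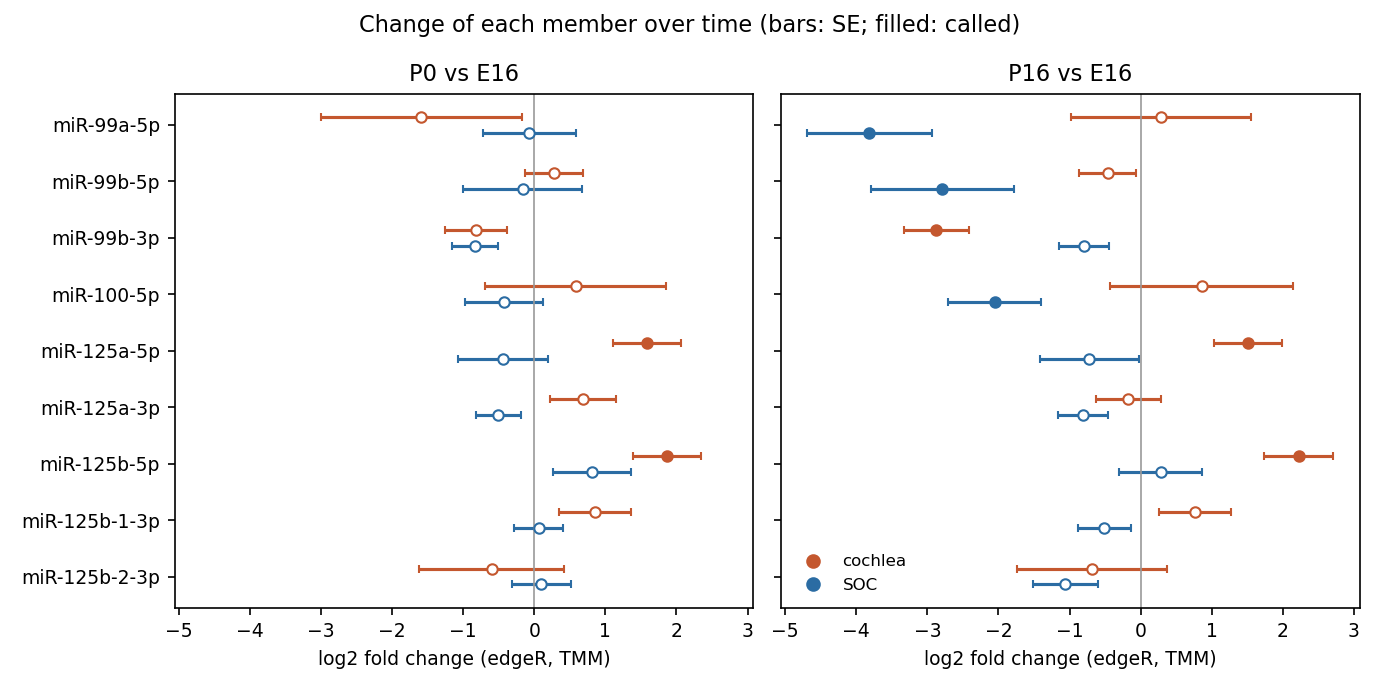
Log2 fold change of each member (x axis, edgeR with TMM) at P0 vs E16 and P16 vs E16, with the organs in different colours; bars are 1 SE, cochlea points of miR-99a-5p, miR-100-5p and miR-125b-2-3p rest on 13 or fewer counts a library, and filled points are DE (FDR under 0.05, fold over 1.5, no overlap). The filled cochlea points are miR-125a-5p and miR-125b-5p to the right in both panels and miR-99b-3p to the left at P16, and the filled SOC points are miR-99a-5p, miR-99b-5p and miR-100-5p to the left at P16.

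In the SOC, the miR-99/100 5p arms were called lower at P16 than at E16, and no miR-125 arm was called. None of these calls held when the libraries rich in miR-99b-5p were left out. Those libraries were picked by their miR-99b-5p share, so a smaller fall of miR-99b-5p was fixed by that choice. Fewer E16 libraries remained, and the log2 fold changes at P16 vs E16 were then -3.02 for miR-99a-5p and -1.30 for miR-100-5p. The lost calls therefore do not show that the rich libraries made these falls. At P0 vs E16, 0 members rose and 0 fell, beside 2.45 and 4.18% of the 694 tested miRNAs (1 member had an unadjusted p under 0.05, and DESeq2 called 1). At P16 vs E16, 0 members rose and 3 fell (miR-99a-5p, miR-99b-5p and miR-100-5p), beside 21.2% of all tested miRNAs that rose and 20% that fell. At P16 vs P0, 0 rose and miR-99a-5p fell, beside 8.07% in each direction. The median log2 fold change of the 9 members was -0.16, -0.81 and -0.57 in these comparisons, and that of all tested miRNAs 0.17, 0.08 and -0.15.

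miR-99b-5p varied strongly within SOC E16 and P0. Its share was 2.60, 17.4, 18.4 and 3.63% at E16 (replicates 1 to 4), 1.64, 19.6, 17.2 and 3.84% at P0 and 1.43, 2.24 and 1.45% at P16. The highest SOC library exceeded the lowest 7.08-fold at E16 and 12-fold at P0, and 1.57-fold at P16, where no library was rich in it. On this measure miR-99a-5p varied more at E16 (9.81-fold), and miR-125a-5p (5.68-fold) and miR-99a-5p (4.63-fold) were among those that varied more at P16. Its log2 fold change at P16 vs E16 was -2.79 ± 1.00 (FDR 0.0399). Without the 4 rich libraries it was -0.83 (edgeR FDR 0.327). Those libraries were set apart by a miR-99b-5p share over 10%, so a smaller fall was fixed by that choice. The call was also lost without any single one of E16 replicates 2 or 3 or P16 replicates 1, 2 or 3. Those fits gave an edgeR FDR of 0.0689 to 0.119 and log2 fold changes of -2.87 to -2.32. With the covariate for libraries poor in miR-191-5p the log2 fold change was -2.15 (FDR 0.156), and -1.27 (FDR 0.116) when the replicate block was added. It was -2.81 (FDR 0.177) without the 3 libraries poor in miR-191-5p, an alternative chosen after seeing the data. At P16 vs P0 the log2 fold change of -2.63 ± 1.00 did not pass (FDR 0.0806).

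miR-99b-3p, cut from the same hairpin, did not share this spread. It had 66.1, 77.9, 67.7 and 116 CPM at E16, 40.1, 43.7, 54.7 and 57.1 CPM at P0 and 35.3, 52.2 and 59.8 CPM at P16, so that the highest library exceeded the lowest 1.75-fold at E16 and 1.42-fold at P0. The libraries with 17.2 to 19.6% of counts on the 5p arm held 43.7 to 77.9 CPM of the 3p arm, within the range of the others. In the SOC, miR-99b-3p was lower in every P0 and P16 library than in every E16 library, but its log2 fold changes of -0.83 ± 0.32 at P0 (FDR 0.145) and -0.80 ± 0.35 at P16 (FDR 0.0859) did not pass. DESeq2 called it at both (-0.84, FDR 0.0323, and -0.80, FDR 0.0251), and so did edgeR with a covariate for the libraries poor in miR-191-5p (-0.94, FDR 0.0177, and -1.05, FDR 0.0163). With that covariate and the replicate block it was also called at P0 (-0.86, FDR 0.00455).

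miR-99a-5p and miR-100-5p fell at very low levels. miR-99a-5p had 97, 97, 91 and 8 counts in the SOC at E16, 101, 69, 110 and 19 at P0 and 2, 6 and 4 at P16. Its log2 fold change was -3.81 ± 0.88 at P16 vs E16 (FDR 0.00487) and -3.74 ± 0.87 at P16 vs P0 (FDR 0.0133). E16 replicate 4 and P0 replicate 4 were the low libraries of their time points, and all P16 libraries were below them. miR-100-5p had 38, 52, 42 and 13 counts at E16, 26, 28, 47 and 10 at P0 and 9, 7 and 5 at P16, with a log2 fold change of -2.05 ± 0.65 at P16 vs E16 (FDR 0.0241) and of -1.63 ± 0.65 at P16 vs P0 (FDR 0.0928). When the 4 miR-99b-5p-rich libraries were left out, neither was called (miR-99a-5p -3.02, FDR 0.0662, and miR-100-5p -1.30, FDR 0.155, at P16 vs E16). The miR-100-5p call was also lost without E16 replicate 2 or 3 or P16 replicate 2 or 3 (FDR 0.0576 to 0.0924) and without the 3 libraries poor in miR-191-5p (FDR 0.173), and the miR-99a-5p call at P16 vs P0 without P16 replicate 3 (FDR 0.0523). As these miRNAs differ by 1 base, their counts may not be separate.

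miR-125a-5p in the SOC was low in a set of libraries that spans time points. Its share was 1.39, 0.789, 0.814 and 1.64% at E16, 1.48, 1.01, 0.981 and 0.335% at P0 and 1.39, 0.271 and 0.245% at P16. The 3 lowest values were those of the 3 libraries poor in miR-191-5p, and P16 replicate 1 was within the range of E16. The log2 fold change at P16 vs E16 was -0.72 ± 0.69 (FDR 0.413). It was -2.21 (FDR 0.00857) without P16 replicate 1 and 0.10 (FDR 0.845) with a covariate for the libraries poor in miR-191-5p. Without those 3 libraries it was 0.46 (FDR 0.426).

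**Figure D3:**
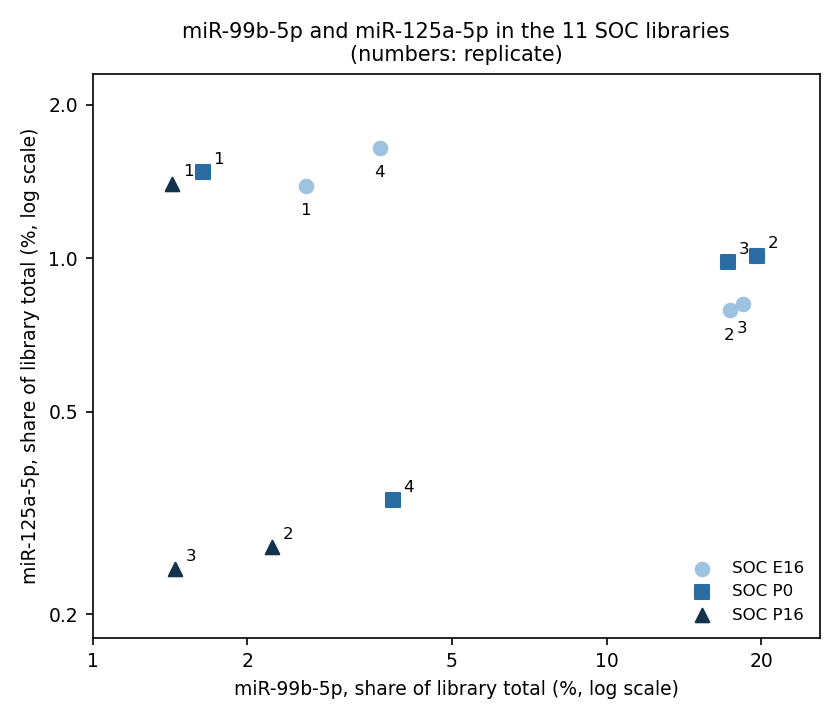
Share of the library total held by miR-99b-5p (x axis, %, log scale) and miR-125a-5p (y axis, %, log scale) in the 11 SOC libraries, with symbols for time points and numbers for replicates. The 4 libraries with 17.2 to 19.6% of miR-99b-5p are E16 and P0 replicates 2 and 3, and the 3 libraries with 0.245 to 0.335% of miR-125a-5p are P0 replicate 4 and P16 replicates 2 and 3.

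miR-125b-5p and its 3p arms gave no SOC calls. miR-125b-5p made up 1.76, 0.794, 1.26 and 1.98% of counts at E16, 2.46, 1.31, 1.15 and 5.84% at P0 and 1.02, 2.32 and 2.25% at P16, with P0 replicate 4 the highest. The log2 values of change were 0.81 ± 0.54 at P0 vs E16 (FDR 0.422) and 0.28 ± 0.58 at P16 vs E16 (FDR 0.712). Both miR-125b 3p arms were well above the floor in the SOC, at 0.116 to 0.320% of counts for miR-125b-1-3p and 0.0456 to 0.192% for miR-125b-2-3p. miR-125b-2-3p, the chromosome 16 arm, had 1382, 1340, 1376 and 1167 CPM at E16, 1883, 1924, 1791 and 775 CPM at P0 and 942, 501 and 456 CPM at P16. All P16 libraries were below all E16 libraries by library total, but not after TMM scaling, and the log2 fold change of -1.06 ± 0.46 did not pass (FDR 0.0832). miR-125a-3p had 44.0 to 83.1 CPM at E16, 34.2 to 46.6 CPM at P0 and 30.0 to 36.2 CPM at P16, and its log2 fold change at P16 vs E16 was -0.81 ± 0.35 (FDR 0.0785). Of the SOC members that were not called at P16 vs E16, miR-99b-3p, miR-125a-3p and miR-125b-2-3p had an unadjusted p under 0.05.

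In the SOC libraries, the oligodendrocyte miRNAs (2) summed to 338 to 497 CPM at E16 and 167 to 541 CPM at P0. At P16 they summed to 2921 to 6418 CPM. The miRNAs listed for hair cells summed to 97018 to 147950, 4236 to 29682 and 592 to 2901 CPM at the time points in order. The SOC is brainstem tissue, so this set does not measure hair cells there. The 7 epithelial miRNAs summed to 930 to 1855 CPM at E16 and to 45.6 to 201 CPM later. Cartilage and mesenchyme miRNAs summed to 629 to 2398, 49.4 to 257 and 21.3 to 114 CPM, skeletal muscle miRNAs to 96.9 to 276, 9.65 to 28.2 and 10.2 to 20.03 CPM, and the endothelial miRNA to 769 to 1230, 834 to 7215 and 852 to 6459 CPM. Their part in the changes of the members was not tested.

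**Figure D4:**
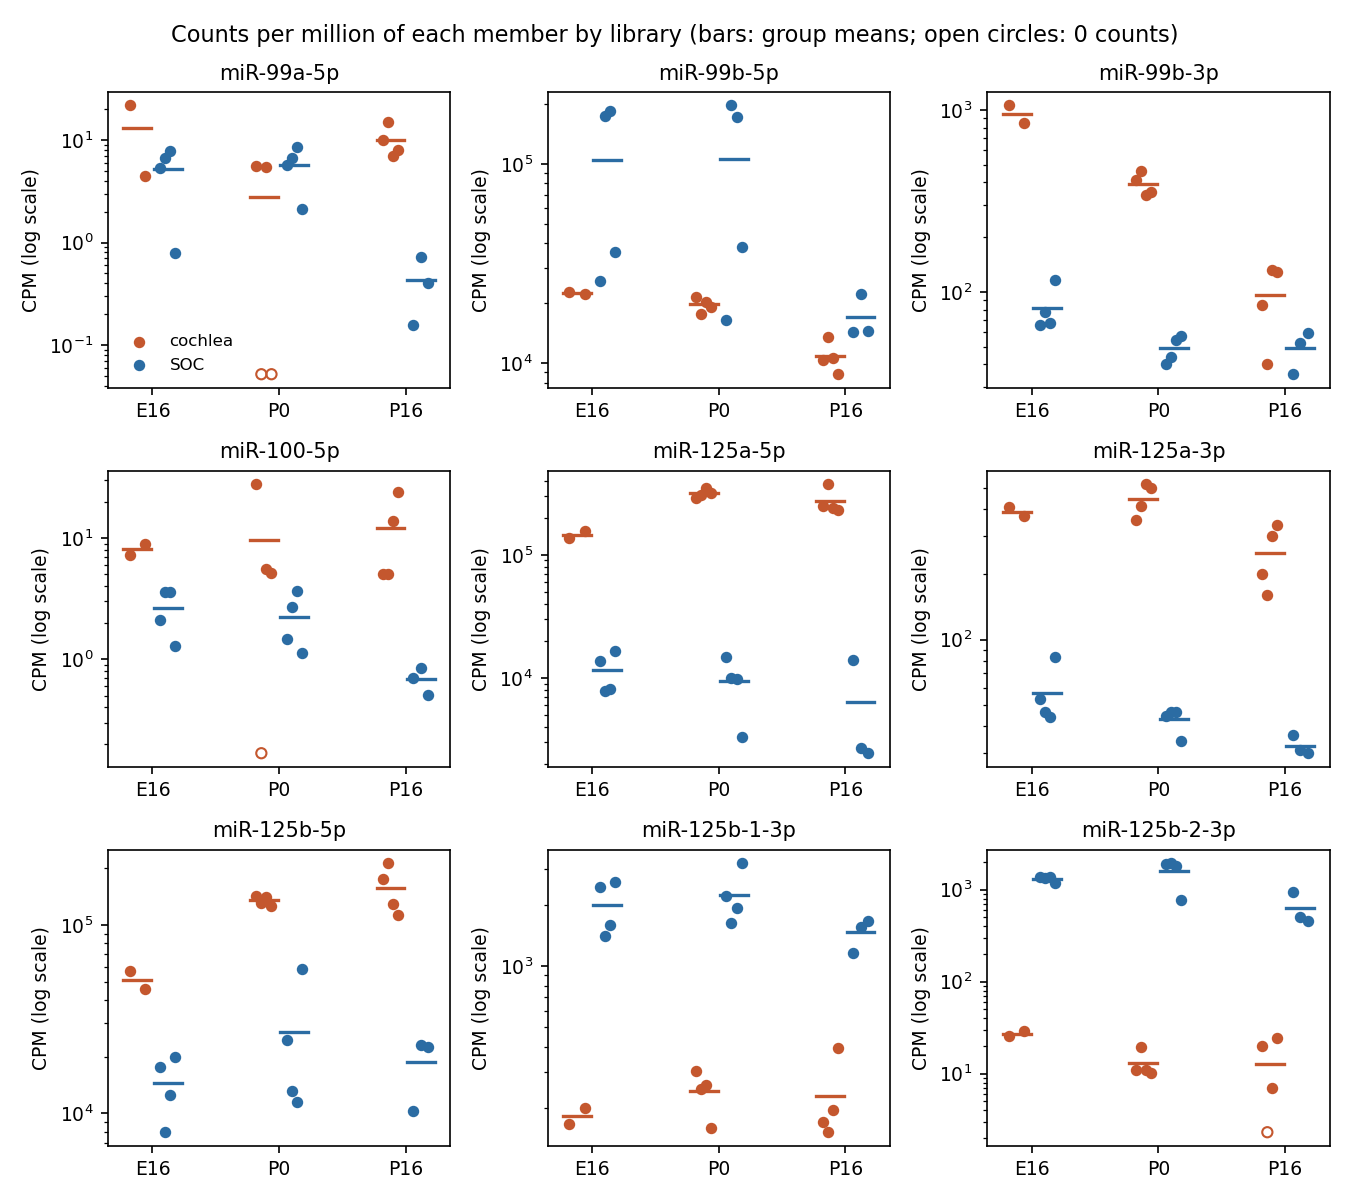
CPM of each member (y axis, log scale) at E16, P0 and P16, with a point per library, a bar at the group mean and an open circle at the bottom for a library with 0 counts; organs are in different colours and their levels are not comparable, since the kits differ. miR-125a-5p and miR-125b-5p step up after E16 in the cochlea, miR-99b-3p steps down there, and the 4 SOC libraries with 17.2 to 19.6% of counts on miR-99b-5p stand apart from the other 7.

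Ratios of counts within a library do not depend on its normalization. Of the 42 ratio tests (7 ratios, 3 comparisons, 2 organs), 2 had an exact permutation p under 0.05 and 0 a Benjamini-Hochberg adjusted p under 0.05. All tests were two-sided, and the smallest p that the permutations allow was 0.133 for 2 against 4 libraries, 0.0571 for 3 against 4 and 0.0286 for 4 against 4. Comparisons with cochlear E16 or SOC P16 could therefore not reach 0.05.

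The 5p over 3p ratio of miR-99b was higher at each later time point in the cochlea. There were 21.5 and 26.5 5p counts per 3p count at E16, 52.7, 38.4, 59.7 and 54.4 at P0 and 123, 337, 80.7 and 68.6 at P16, with no overlap. The mean log2 ratio was 4.57 ± 0.22 (SD, n = 2), 5.65 ± 0.28 (n = 4) and 6.89 ± 1.01 (n = 4). Its difference of 1.24 between P16 and P0 had an exact permutation p of 0.0286 (adjusted p 0.373), the smallest possible. In the SOC the ratio was 394, 2230, 2721 and 313 at E16, 409, 4490, 3152 and 672 at P0 and 405, 428 and 242 at P16. The rich libraries were picked by miR-99b-5p, the numerator, so their high ratio is no separate observation.

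The 2 members of the chromosome 17 cluster, miR-99b-5p and miR-125a-5p, moved apart in the cochlea. Their mean log2 ratio (miR-99b-5p over miR-125a-5p) was -2.69 ± 0.15 at E16, -4.00 ± 0.18 at P0 and -4.64 ± 0.13 at P16, with no overlap between time points. The difference of -0.64 between P16 and P0 had an exact permutation p of 0.0286 (adjusted p 0.373). In the SOC the same ratio ranged widely within time points, at 3.02 ± 1.94 at P0 against 2.75 ± 2.00 at E16 (SD, n = 4 each, exact permutation p = 1.0).

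For miR-125a, the cochlear 5p over 3p ratio was 336 and 421 at E16, 644 to 810 at P0 and 687 to 2307 at P16. The libraries of E16 were below all others, while P0 and P16 overlapped. In the SOC, the 3 libraries poor in miR-191-5p had 81.7 to 97.9 5p counts per 3p count and the other 8 had 169 to 385. Between the miR-125b genes, SOC libraries held 0.451 to 0.956 miR-125b-2-3p counts per miR-125b-1-3p count at E16, 0.242 to 1.19 at P0 and 0.273 to 0.809 at P16, with the libraries poor in miR-191-5p at 0.242 to 0.323. The cochlea had 0.146 and 0.152 at E16 and 0 to 0.118 later, from 13 or fewer miR-125b-2-3p counts per library.

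**Figure D5:**
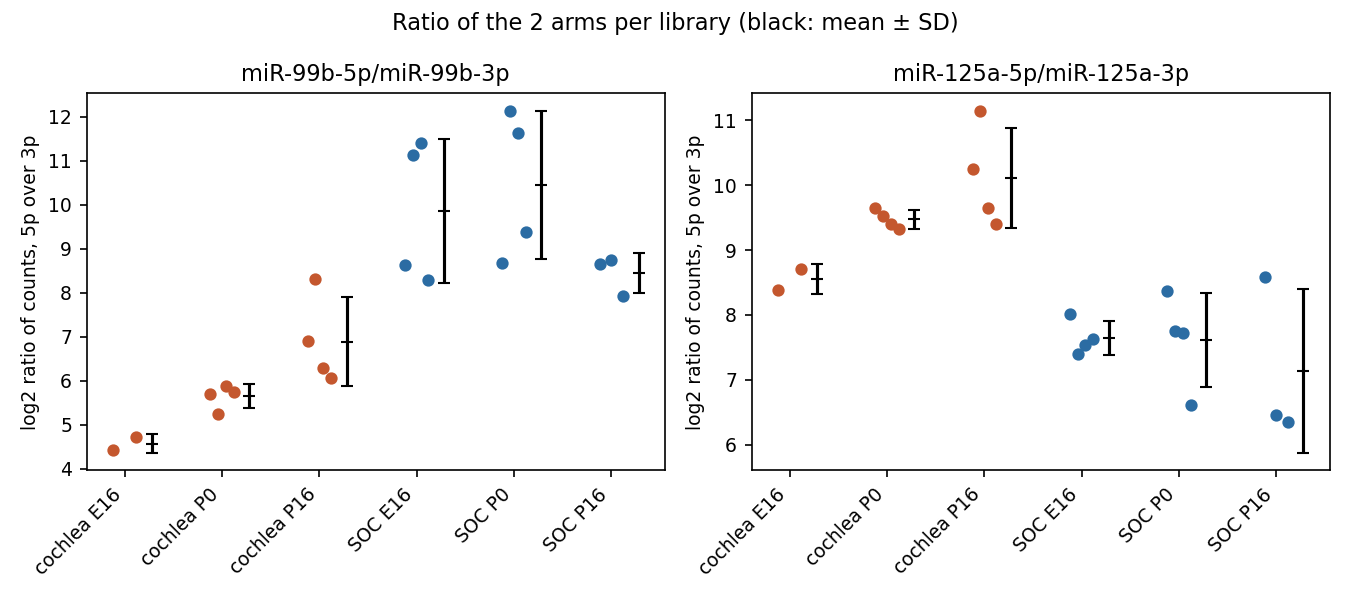
Log2 ratio of 5p over 3p counts (y axis, 0.5 added to each count) of miR-99b and miR-125a, with a point per library in each organ and time point and the mean ± SD in black. The miR-99b ratio rises from 4.57 to 6.89 over the cochlear time points, while SOC E16 and P0 each split into 2 libraries at 11.1 or more and 2 at 9.39 or less. The higher 2 of each are those set apart by their miR-99b-5p share.

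The change from E16 differed between the organs for 2 members. At P0 vs E16, 0 of the 9 members had an organ by time interaction (2 had an unadjusted p under 0.05, and DESeq2 called 2), beside 8.99% of the 545 miRNAs tested in both organs with a higher change in the SOC and 2.94% with a lower one. At P16 vs E16, miR-99b-3p changed less in the SOC (log2 fold change -0.80) than in the cochlea (-2.87), a difference of 1.98 ± 0.55 (FDR 0.0164), and the fitted difference for miR-99a-5p was -4.22 ± 1.40 (FDR 0.0414). The background was 11% with a higher and 5.87% with a lower change in the SOC. The miR-99a-5p value rests on cochlear counts of 0 to 6 per library and gives no size for an organ difference. The differences of miR-125a-5p (-2.46 ± 0.92, FDR 0.0679) and miR-125b-5p (-2.08 ± 0.85, FDR 0.0914) did not pass at P16 vs E16, where 7 of the 9 members had an unadjusted p under 0.05. Some alternatives called them. miR-125a-5p passed with the replicate block (-3.12, FDR 0.0171), with DESeq2 (-2.59, FDR 0.0103), without SOC P16 replicate 1 (-3.87, FDR 0.00115) and in 3 further settings. miR-125b-5p passed with the covariate for libraries poor in miR-191-5p (-3.10, FDR 0.00171), with DESeq2 (FDR 0.0433) and without SOC P0 replicate 4 (FDR 0.0339). Without the 4 rich SOC libraries neither miR-99b-3p (FDR 0.0739) nor miR-99a-5p (FDR 0.167) passed. miR-99b-3p also lost the call without SOC P16 replicate 3 (FDR 0.0659), and miR-99a-5p lost it without any single one of cochlea E16 replicate 2, cochlea P16 replicates 1 or 2, SOC E16 replicates 1, 2 or 3 and SOC P16 replicates 1 or 3 (FDR 0.0536 to 0.193).

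The let-7 neighbours and the remaining arms made up a list of 8 miRNAs. Their median log2 fold change was 0.95, 0.50 and -0.24 in the 3 cochlea comparisons (in the order used above) and -0.16, -0.85 and -0.67 in those of the SOC. In the cochlea, 6 of the 8 were tested, and 2 rose at P0 vs E16 and 1 rose and 2 fell at P16 vs E16. let-7c-5p, which is made from the chromosome 16 cluster and from a gene on chromosome 15, made up 0.411 and 0.552% of counts at E16, 1.24 to 1.64% at P0 and 0.788 to 4.62% at P16, and its log2 fold change was 2.04 ± 0.45 at P0 (FDR 7.41e-05) and 2.94 ± 0.47 at P16 (FDR 1.1e-08). let-7c-1-3p fell at P16 vs E16 (-1.20 ± 0.44, FDR 0.0227) and at P16 vs P0 (-2.21 ± 0.38, FDR 3.15e-07). let-7a-5p rose at P0 (1.08 ± 0.42, edgeR FDR 0.0432). The annotation of mature sequences gave it only at Mirlet7a-1 on chromosome 13. As it was listed for Mirlet7a-2 in the chromosome 9 cluster too, its count cannot be assigned to a locus. let-7a-2-3p, the arm from the chromosome 9 cluster, was not tested in the cochlea. miR-99a-3p, the other arm of miR-99a, had 8 and 12 counts at E16 and 0 in all 4 P16 libraries (FDR 0.0126), too few for a fold change. let-7e-5p, which lies between miR-99b and miR-125a, was at 0.197 and 0.254% at E16 and 0.0625 to 0.359% later, and was not called in any comparison of either organ.

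In the SOC all 8 were tested, with 1 rise at P0 vs E16 and 1 rise and 1 fall at P16 vs E16. let-7c-5p rose (2.75 ± 0.72, FDR 0.0429, at P0 and 3.97 ± 0.78, FDR 0.00198, at P16) and let-7c-1-3p fell at P16 (-3.11 ± 0.82, FDR 0.0101). These were low levels, since let-7c-5p made up 0.000132 to 0.00579% of SOC counts and let-7e-5p 0.000265 to 0.00114%. let-7c-5p and let-7e-5p each differ from let-7a-5p by 1 base, so the counts of all 3 are uncertain. miR-99a-3p had 0.000493 to 0.00372% of SOC counts, more than miR-99a-5p in every library.

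miR-351-5p, which shares the miR-125 seed but lies on the X chromosome, fell at P16 in the cochlea while the miR-125 5p arms rose. It made up 0.575 and 0.730% of cochlea counts at E16, 0.417 to 0.587% at P0 and 0.0617 to 0.109% at P16, a log2 fold change of -2.33 ± 0.39 at P16 vs E16 (FDR 3.41e-08). In the SOC it had 0.616 to 1.67% at E16, 0.0807 to 0.427% at P0 and 0.0519 to 0.242% at P16, and fell at P0 (-2.39 ± 0.66, FDR 0.0478) and P16 (-3.09 ± 0.76, FDR 0.00703) relative to E16.

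Patterns across libraries are given as a description, since libraries share time points and sets. Over the 10 cochlea libraries, the miRNAs outside the families most like miR-125a-5p (on TMM-normalized log2 CPM, among 249 miRNAs averaging 100 CPM or more) were miR-3069-3p (Pearson r 0.949), miR-1982-3p (0.909), miR-1224-3p (0.908), miR-145a-5p (0.896) and miR-664-3p (0.896). The r of miR-125b-5p with miR-125a-5p was 0.942 (Spearman rho 0.830), and that of its cluster neighbour miR-99b-5p 0.335 (rho 0.770). Over the 11 SOC libraries, the miRNAs most like miR-99b-5p among 174 were miR-409-5p (0.884), miR-501-3p (0.881), miR-28a-5p (0.876), miR-106b-3p (0.821) and miR-183-5p (0.794). The same 5 were nearest on deviations from the time point means, with r from 0.827 to 0.975. miR-125a-5p had an r of -0.107 with miR-99b-5p on that scale.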

How the data were processed

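Small RNA was sequenced from cochlear SE and SOC tissue (10 and 11 libraries). The deposited table holds raw counts per mature miRNA, which the authors made by aligning reads with Bowtie to a MirGeneDB-based reference according to their methods. The submitters' processing notes name Bowtie2 2.2.5, DESeq2 and mm10, while the table uses miRBase names, and the handling of reads with several matches is not given in the sources used here. Mature miRNAs are read whole, so counts were not divided by length.

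The members and lists were chosen with earlier results of these data known. The 9 members, their 8 cluster partners and miRNAs sharing a 5p seed were named whatever their values, and the 5 miRNAs most like miR-125a-5p in the cochlea and miR-99b-5p in the SOC were named by Pearson's r. A miRNA was tested in an organ if 2 or more libraries of any one time point exceeded 1 CPM (896 in the cochlea, 694 in the SOC) with edgeR 4.0.16 (R 4.3.3), TMM factors and quasi-likelihood tests, with Benjamini-Hochberg adjustment over all of them. The organ by time interaction was fitted over 545 miRNAs. Ratios were compared with exact two-sided permutation tests (scipy 1.17.1) on log2 values with 0.5 added to each count. DESeq2 1.42.0, other scalings, filters, single libraries left out, library sets left out or as covariates and a replicate block were tried as alternatives. The scripts were tested on simulated data.

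Samples were biological repeats of pooled tissue by the study's methods. The least different of 28 pairs of replicates had a chi-square of 5.953 per degree of freedom, so all pairs differed by more than counting error. Libraries made separately from the same RNA could also differ that much and are not excluded by this. Same-numbered SOC libraries of E16 and P0 deviated together (r of 0.251 to 0.490 over 4 pairs). Libraries with different numbers were not compared and the labels give only a replicate number, so a pairing of samples is not established. The replicate block alone left 0 members called there. Of the 1647 miRNAs, 1415 matched a RefSeq mature sequence, and 41 of them had another within 1 base. Hairpin positions are from GRCm38, the same assembly as mm10.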

Additional observations from a re-analysis of the deposited data

Results flagged for a closer look

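Of 36 groups of 4 libraries examined for a value far from the rest (by Dixon's test on the gap to the nearest library over the group's range), 4 had one, and chance alone gives about 1 in 20. miR-125a-5p reached 372000 CPM in cochlea P16 replicate 2, with a gap of 0.894 of the range, and was chosen for its high cochlear level. In the SOC, P0 replicate 4 had the lowest miR-125a-3p (34.21 CPM, gap 0.851) and the lowest miR-125b-2-3p (775.2 CPM, gap 0.884). miR-125b-2-3p was highest in cochlea P0 replicate 2 (19.29 CPM, gap 0.908), from 4 counts against 2 in each of the others.

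The change from E16 to P16 differed between the organs for 2 members by the interaction test in edgeR (Benjamini-Hochberg adjusted). For miR-99a-5p the SOC log2 fold change minus the cochlea one was -4.22 (FDR 0.0414), with 6 or fewer counts in every cochlea library, too few to give the difference a size. For miR-99b-3p it was 1.98 (FDR 0.0164). Of the 545 miRNAs tested in both organs, 11% had a higher and 5.87% a lower change in the SOC. Neither member passed in edgeR without the 4 SOC libraries rich in miR-99b-5p (FDR 0.167 for miR-99a-5p and 0.0739 for miR-99b-3p).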

How the results depend on the processing

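The number of members called at P16 vs E16 in the cochlea (3) stayed between 2 and 4 under all 20 alternatives. At P0 vs E16 in the cochlea (2 called), a fit of all 21 libraries called 0, DESeq2 and library totals called 3 (adding miR-99b-3p), and leaving out single libraries gave 0 to 2, with 1 without E16 replicate 1 and 0 without E16 replicate 2. At P16 vs P0 in the cochlea (1), library totals gave 2, a filter of at least 10 counts in every library, which removes miR-99b-3p, gave 0, and leaving out single libraries gave 1 to 2, with 2 without P16 replicate 2. In the SOC at P0 vs E16 (0), DESeq2, a covariate for the libraries poor in miR-191-5p and that covariate with the replicate block each called 1, and leaving out single libraries gave 0. At P16 vs E16 (3), DESeq2 called 5, the 10-count filter 0, the fit of all libraries 1, leaving out the 4 libraries rich in miR-99b-5p 0, leaving out the 3 poor in miR-191-5p 1 (chosen after seeing the data) and the covariate with the replicate block 1, and leaving out single libraries gave 1 to 4, with 1 without E16 replicate 2 or 3 or P16 replicate 2 or 3. At P16 vs P0 (1), DESeq2 called 2, the 10-count filter 0, the replicate block 2, leaving out the 4 rich libraries 0, and leaving out single libraries gave 0 to 3, with 3 without P0 replicate 4 or P16 replicate 1 and 0 without P16 replicate 3. For the organ difference at P0 vs E16 (0), DESeq2 called 2, the covariate 2, and leaving out single libraries gave 0 to 1, with 1 without SOC P16 replicate 1. At P16 vs E16 (2), DESeq2 called 6, library totals 1, no filter 0, the 10-count filter 0, leaving out the 4 rich libraries 1, and leaving out single libraries gave 0 to 4, with 4 without SOC P0 replicate 4 and 0 without SOC P16 replicate 3. The SOC change of miR-125a-5p turned its direction: at P16 vs E16 (-0.72) it was 0.10 with the covariate, 0.46 without the 3 poor libraries and 0.25 with the covariate and replicate block, and at P16 vs P0 (-0.29) it was 0.11, 0.57 and 0.24, with -1.81 to 0.19 when single libraries were left out (0.07 without P16 replicate 2 and 0.19 without P16 replicate 3). The fewer libraries and miRNAs of the left-out and filtered fits are part of their construction; otherwise the cause was not tested. Over 54 single results and 838 alternatives, 723 kept direction and side of the threshold, 46 lost a call, 16 were ratio comparisons whose unadjusted exact permutation p rose from 0.0286 to 0.0571 with fewer libraries, 39 gained a call, 8 turned direction and 6, on shares without the members in the denominator, moved by more than the spread between replicates. Of 32 further changes that no setting called, 17 changed sign under some setting. In the other comparisons not all same-numbered libraries deviated together, so they share only a number: r was -0.0244 and 0.107 for cochlea P0 vs E16, -0.00935 to 0.00612 for cochlea P16 vs E16, -0.101 to 0.0817 for cochlea P16 vs P0, -0.0903 to 0.0113 for SOC P16 vs E16 and -0.601 to 0.548 for SOC P16 vs P0, with 1 of 3 pairs over 0.1. In the cochlea, miR-99a-5p, miR-100-5p and miR-125b-2-3p had only a few counts a library.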
